A study of Mus musculus with 8 samples.

Results

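The nuclear genes of oxidative phosphorylation were taken as all mouse genes whose array symbol begins with Nduf, Uqcr, Cox4 to Cox8 or Atp5, together with Sdha, Sdhb, Sdhc and Sdhd, and that have a probe set assigned to that gene only. The rule found 90 genes among 18193, on 179 probe sets, and each gene was read from its probe set with the highest mean signal. They comprised 36 complex I subunits and Nduf paralogues, 8 complex I assembly factors named Ndufaf, 4 complex II genes, 8 complex III genes, 17 complex IV genes and 17 ATP synthase genes. Of these, 88 passed a filter that asked for a signal above 64.1 on at least 2 of 8 arrays, and 85 were above it on all 8. The probe sets of Ndufb4 and Cox7b2 were below this floor on every array, and both genes were left out of the tests. Another 8 symbols that fit the rule, among them Ndufs6 and Ndufa11, had only probe sets shared with another gene and were not analysed here.

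Oxidative phosphorylation passes electrons from NADH through complex I, or from succinate through complex II, to coenzyme Q, then through complex III and cytochrome c to complex IV, where oxygen is reduced. Complexes I, III and IV pump protons across the inner mitochondrial membrane, and ATP synthase uses the gradient to make ATP. A few complex IV subunits exist as muscle-type forms (Cox6a2, Cox7a1, Cox8b) beside widely expressed forms (Cox6a1, Cox7a2, Cox8a).

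Signals came from 8 Affymetrix arrays, 1 per group, of C57BL/6 mice aged 110 days. Non-tumour colon and small intestine (ileum) came from wild-type mice (WT) and from mice lacking ACKR2, also called D6 (ACKR2-/-, here ACKR2KO), a receptor that scavenges inflammatory CC chemokines. Tumours of both tissues came from ApcMin/+ mice (here ApcMin), in which a germline mutation in 1 copy of Apc, a brake on Wnt signalling, leads to spontaneous intestinal tumours, and from ACKR2-/- ApcMin/+ mice (here ACKR2KO_ApcMin). RNA was pooled within each genotype, with no number of animals given, and the non-tumour tissue came from mice without the ApcMin allele, so tumour status and that allele cannot be told apart. All values are array signals on the linear scale, scaled by the authors, or differences of their log2, with values under the floor set to it. Standard errors (SE) and adjusted p-values are from 1 limma model with Benjamini-Hochberg adjustment over 14027 genes, a gene was called at an adjusted p under 0.05, and n = 1 array in every group. The model's spread is how far the effect of ACKR2 loss differed between the tissues, so a p-value does not measure variation between animals. In whole tissue, fewer cells of a type and less RNA per cell cannot be told apart.

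The median signal of an array lay between 85.5 and 133.1, and was lower in the array without ACKR2 of each of the 4 pairs that differ in ACKR2 genotype. The ratio of the 3' to the 5' control probe set of Actb, a measure of RNA integrity and labelling, was 1.132 to 1.167 on the 4 arrays with ACKR2 and 1.283 to 1.389 on the 4 without it. The same ratio of Gapdh overlapped, at 0.772 to 0.952 with ACKR2 and 0.74 to 0.866 without it. It was lower without ACKR2 in the non-tumour pairs and higher in the tumour pairs. Eif2s3y, on chromosome Y, had signals of 2.92 and 2.66 on the WT arrays and was clearly detected on the other 6, and Xist was lowest, at 77.86 and 126.93, on the ACKR2KO_ApcMin arrays. The sex composition of the pools therefore moves with the genotypes. Its part in the results was not tested, nor was that of the Actb ratio. Some genes typical of colon were high on the WT small-intestinal array. Car1 read 18864 there, and 62.6 (ACKR2KO), 42.3 (ApcMin) and 114 (ACKR2KO_ApcMin) on the other small-intestinal arrays. Cyp2c55 read 9970, 1147, 655 and 608 in the same order. Atp12a (24.2) and Scnn1g (3.96) were not raised there. The part of this in the comparisons that use the array was not tested.

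Few oxidative phosphorylation genes differed between tumour and non-tumour tissue. In colon tumours 1 of 88 members, Ndufa4, was called higher, and 6 were called lower, namely Cox7a1, Cox8b, Sdhc, Ndufa6, Cox7a2l and Ndufaf8. Over all genes 11.1% were called higher and 12.6% lower in this comparison. In tumours of the small intestine 0 members were called in either direction (7 had an unadjusted p under 0.05), where 2.72% of all genes were called higher and 1.18% lower. For the mean of both tissues, 0 members were called higher and 8 lower: Cox7a1, Cox8b, Sdhc, Uqcrfs1, Ndufs1, Ndufs3, Ndufb9 and Ndufaf8. The shares of all genes were 13.1% higher and 11.9% lower. Cox8b passed the filter only through the arrays on which it is high, so its calls were fixed by the filter and the floor and count for nothing beyond its signals, and without it the lower calls number 5 and 7. Each of these calls rests on all 8 arrays: with any 1 array left out, which leaves 1 residual degree of freedom, 0 members were called, although 3 to 15 in colon had an unadjusted p under 0.05. Without the filter on low signals the tumour calls were Cox8b alone, and averaging the probe sets of a gene ended both Sdhc calls. With probe sets averaged or without limma's trend Ndufs1, Ndufs3, Ndufb9, Ndufaf8, Ndufa4, Ndufa6 and Cox7a2l were no longer called, in the comparisons where they had been.

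Most members had estimates slightly below 0 in tumours. The median log2 difference over the 88 members was -0.13 in colon and -0.17 in small intestine, beside medians over all genes of 0 and 0.04. In colon, 45 members were lower in both tumour arrays than in the matching non-tumour arrays, and 34.7% of all genes were. In small intestine the count was 53 members, beside 25.8% of all genes. Across all 4 pairs 29 members were lower in every tumour array, beside 15.8% of all genes, and 2 were higher. With quantile normalization the count over 4 pairs was 24 (17.3% of all genes), and with each array centred on its median it was 39 (22.4%). These shifts are small beside the error of a single gene: the median half-width of a 95% interval was 0.45 per tissue.

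Markers of cell content moved in the same comparisons. The summed signal of 10 colonocyte genes, the absorptive cells of the colon, was 114216 and 114789 in non-tumour colon and 44662 and 20950 in colon tumours. All 10 estimates were below 0 there, with a median of -2.31, and 6 were called lower. The summed signal of 9 proliferation genes was 13307 and 13377 in non-tumour colon and 30229 and 36225 in colon tumours, where 9 of 9 were called higher with a median of 1.65. In small intestine 5 B cell genes summed to 1385 and 369 without tumour and to 6879 and 10951 in tumours, and 5 of 5 were called higher with a median of 3.21. The 10 small-intestinal enterocyte genes summed to 211474 and 191040 without tumour and to 130064 and 232809 in tumours, with 0 called in either direction there. The part of cell content in the members' shift was not tested.

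**Figure D1:**
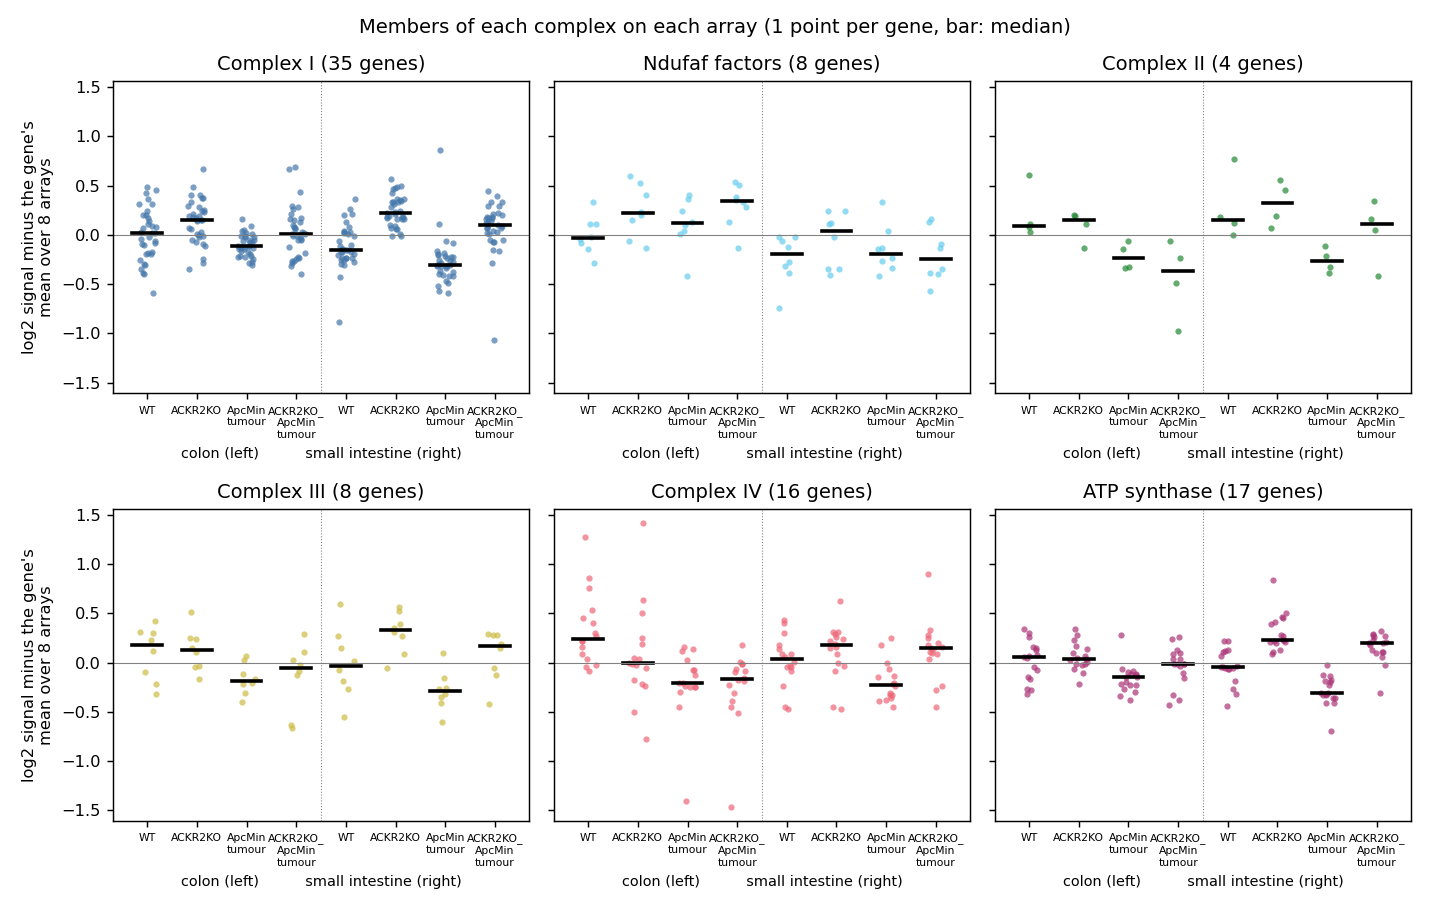
Log2 signal of each tested member minus its own mean over the 8 arrays, by complex, with 1 point per gene and a bar at the median; the 4 colon arrays are left of the dotted line and the 4 small-intestinal arrays right of it. In complexes I, II, III and IV and ATP synthase the ApcMin small-intestinal tumour array has the lowest median on the small-intestinal side. All members together had medians of -0.29 there and 0.22 in ACKR2KO small intestine.

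Among the subunits of complex I, which oxidizes NADH, 35 genes were tested, and their median log2 difference was -0.09 in colon tumours and -0.15 in small-intestinal tumours. Ndufs1 encodes the largest core subunit, which holds iron-sulfur clusters. Its signals in colon were 3714 (WT), 4039 (ACKR2KO), 3025 (ApcMin) and 3172 (ACKR2KO_ApcMin), and in small intestine 3377, 4075, 2352 and 2954 in the same order. Tumour values lay below non-tumour values in both tissues without overlap, and Ndufs1 fell by 0.41 on the log2 scale (SE 0.10, adjusted p = 0.0348) for the mean of both tissues.

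Ndufs3, another core subunit of the arm that extends into the matrix, had signals of 5842, 6210, 4708 and 4482 in colon and 5039, 6473, 4344 and 4162 in small intestine (WT, ACKR2KO, ApcMin and ACKR2KO_ApcMin, the order used from here on). It fell by 0.41 for the mean of both tissues (SE 0.10, adjusted p = 0.0354), and the tumour and non-tumour arrays did not overlap in either tissue. Ndufb9, an accessory subunit of the membrane arm, read 16810, 14434, 11386 and 10194 in colon and 13010, 13985, 9208 and 10940 in small intestine. It fell by 0.48 (SE 0.13, adjusted p = 0.0465), again with no overlap within a tissue. Its 2 other probe sets gave -0.42 and -0.19.

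Ndufa4 went the other way in colon. Long counted with complex I, its product is now placed with complex IV. The colon signals were 4374, 5560, 6282 and 10464, so both tumour arrays were above both non-tumour arrays, and Ndufa4 rose by 0.72 (SE 0.18, adjusted p = 0.0364). In small intestine the signals were 5982, 9139, 5883 and 6906, the estimate was -0.21 (adjusted p = 0.569), and the difference between the tissues, 0.93, was not called (SE 0.26, adjusted p = 0.134). Its paralogue Ndufa4l2, a gene known for induction by hypoxia, had low signals of 180, 153, 130 and 110 in colon and 119, 144, 243 and 34.6 in small intestine. The ApcMin small-intestinal tumour array was the highest and the ACKR2KO_ApcMin one fell below the floor, at least 3.79-fold apart. The ACKR2 difference in tumours was -1.08 (SE 0.42) and was not called (adjusted p = 0.296).

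Ndufa6, an accessory subunit, was both higher in non-tumour colon than in non-tumour small intestine and lower in colon tumours. Its signals were 9547, 12258, 6490 and 7577 in colon and 5724, 8707, 5551 and 7772 in small intestine. The tumour difference was -0.63 in colon (SE 0.16, adjusted p = 0.0382) and -0.10 in small intestine (adjusted p = 0.771). Both colon calls of Ndufa6 were lost under median centring, where the tumour estimate was -0.62 and the tissue estimate 0.40.

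Of the 8 Ndufaf assembly factors, which help build complex I without staying in it, 1 was called in colon tumours. Ndufaf8 read 2594, 3190, 1794 and 2196 in colon and 2364, 2848, 1898 and 2682 in small intestine. It fell by 0.54 in colon (SE 0.14, adjusted p = 0.0395) and by 0.37 for the mean of both tissues (SE 0.10, adjusted p = 0.041). As a group the 8 had a median of 0.13 in colon tumours, above that of the subunits, with 6 of 8 estimates above 0. Ndufaf7, a methyltransferase that modifies a complex I subunit, stood out by tissue: its signals were 707, 809, 741 and 812 in colon and 336, 442, 510 and 377 in small intestine. Every colon array was above every small-intestinal array, and the non-tumour difference was 0.97 (SE 0.23, adjusted p = 0.0311).

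Complex II, succinate dehydrogenase, also belongs to the tricarboxylic acid cycle, and its 4 genes had the lowest median of the 6 groups in both tumour comparisons, -0.39 in colon and -0.35 in small intestine, with all 4 estimates below 0 in each tissue. Sdhc, which encodes a membrane anchor of the complex, read 8338, 6251, 4946 and 2785 in colon and 9288, 5751, 5062 and 4107 in small intestine. The tumour arrays were lower than the non-tumour arrays in both tissues. Sdhc fell by 0.96 in colon (SE 0.18, adjusted p = 0.0167) and by 0.82 for the mean of both tissues (SE 0.13, adjusted p = 0.00929). In small intestine alone the estimate was -0.68 (SE 0.18, adjusted p = 0.11). Both calls were lost when the probe sets of a gene were averaged, where the estimates were -0.58 in colon and -0.49 for the mean of both tissues. The other Sdhc probe set read 3161, 2404, 3030 and 1925 in colon and 3514, 3109, 2966 and 3158 in small intestine, a tumour difference of -0.19 in colon and -0.15 for the mean of both tissues.

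Sdha, the flavoprotein that oxidizes succinate, read 7830, 8532, 5925 and 5296 in colon and 8075, 10123, 6391 and 8298 in small intestine. Its colon estimate was -0.55 (SE 0.18) and was not called (adjusted p = 0.0817), and the small-intestinal arrays overlapped. Sdhb, the iron-sulfur subunit, read 9599, 8610, 7478 and 7995 in colon and 10671, 13887, 7215 and 11964 in small intestine, with estimates of -0.23 and -0.39 that were not called. Sdhd, the other membrane anchor, read 7507, 7517, 6682 and 6689 in colon and 6981, 7976, 5572 and 7216 in small intestine, with estimates of -0.17 and -0.23, also not called.

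In complex III, which passes electrons from coenzyme Q to cytochrome c, all 8 estimates for the mean of both tissues were below 0, with a median of -0.20, and 1 was called. Uqcrfs1 encodes the Rieske iron-sulfur protein, a catalytic subunit. Its signals were 11035, 9764, 8594 and 5303 in colon and 9941, 10174, 6826 and 6155 in small intestine, with the ACKR2KO_ApcMin array the lowest in each tissue. It fell by 0.63 for the mean of both tissues (SE 0.13, adjusted p = 0.0212), with nearly equal estimates in colon (-0.62) and small intestine (-0.63). Uqcr10, a small accessory subunit, was higher in non-tumour colon than in non-tumour small intestine by 0.64 (SE 0.17, adjusted p = 0.0481). It read 7820, 8997, 6445 and 7728 in colon and 4300, 6702, 4160 and 6103 in small intestine, with tumour estimates of -0.25 and -0.09 that were not called.

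**Figure D2:**
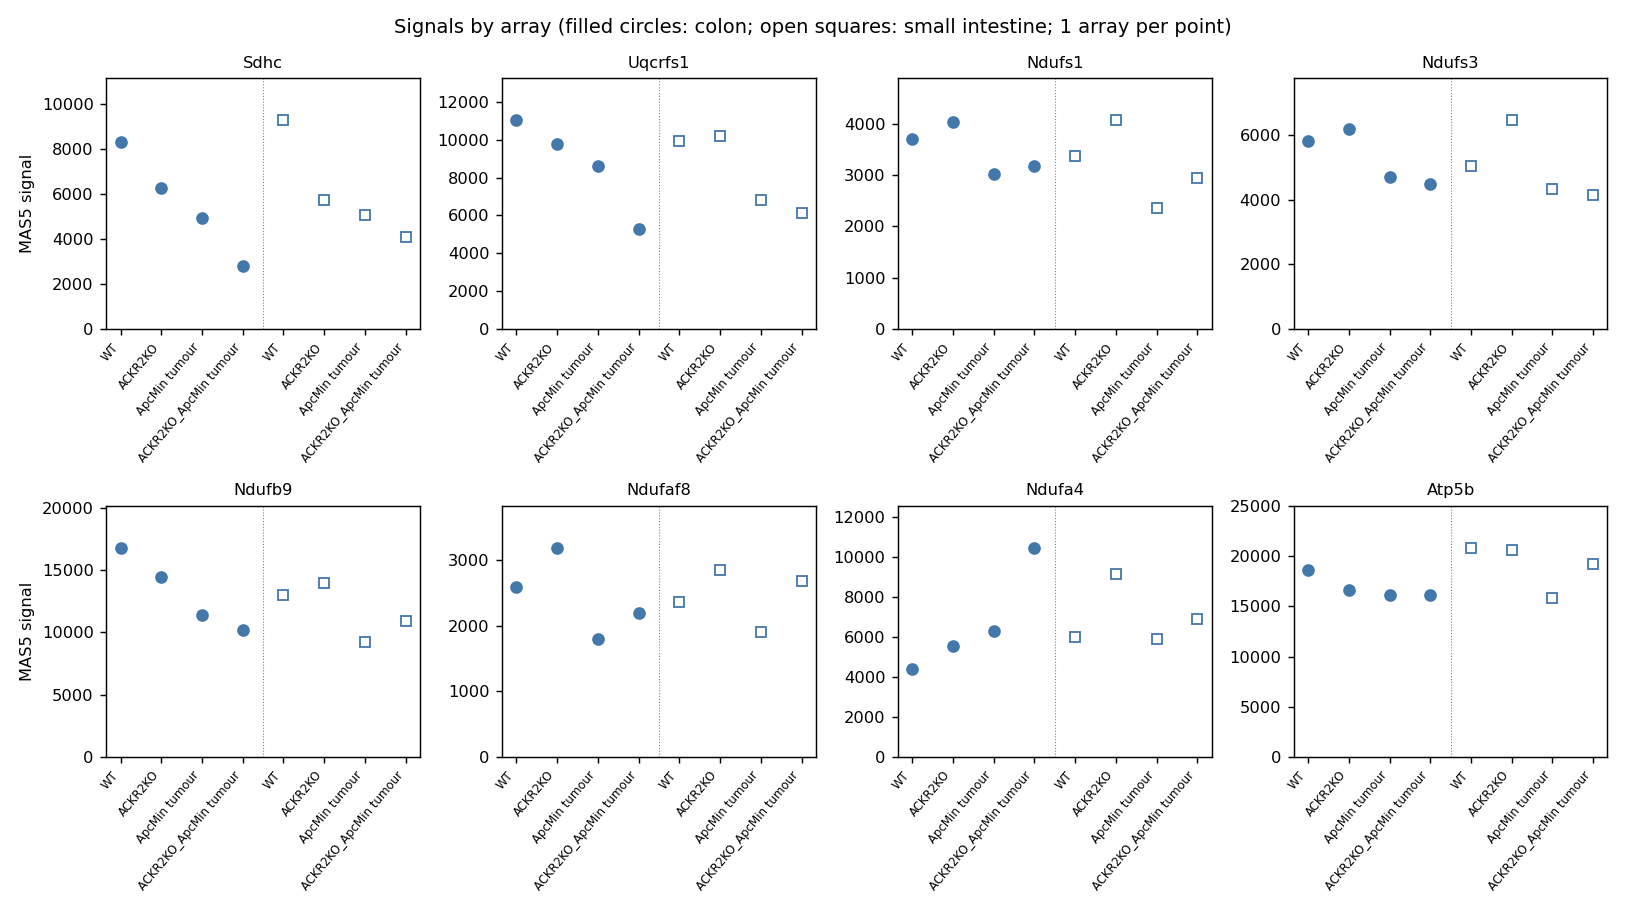
Signals of 7 members called in a tumour comparison, and of Atp5b for comparison, on each array, with filled circles for colon and open squares for small intestine; the axes are linear and start at 0, and 1 point is 1 pooled array. Sdhc and Uqcrfs1 are lower in tumours of both tissues, Ndufa4 is higher in tumours of the colon, and Atp5b stays between 15844 and 20855.

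The largest differences of any member were in complex IV, cytochrome c oxidase, and concerned muscle-type subunits. Cox7a1 is the heart and muscle form of a small subunit of the complex. Its signals were 1900 and 1964 in non-tumour colon and 525 and 503 in colon tumours. In small intestine they were 1829 and 2132 without tumour and 1381 and 2584 in tumours. The colon groups were far apart and the small-intestinal groups overlapped. Cox7a1 fell by 1.91 in colon tumours (SE 0.24, adjusted p = 0.00584), 3.76-fold, whereas the estimate in small intestine was -0.06 (SE 0.24, adjusted p = 0.931). With 1 array left out the colon estimate lay between -2.39 and -1.43.

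The difference between those effects was -1.85 (SE 0.34) and was not called, at an adjusted p of 0.0609. A direct comparison of the tumours did pass the test: Cox7a1 was lower in colon tumours than in small-intestinal tumours (log2 difference -1.88, SE 0.24, adjusted p = 0.00699), the only member called there. Of the 88 members 0 were called higher and 1 lower, beside 5.75% and 7.35% of all genes. For the mean of both tissues Cox7a1 fell by 0.99 (SE 0.17, adjusted p = 0.0126), with lower values in 3 of 4 pairs.

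Cox8b, the muscle form of another small subunit, was above the floor only on the non-tumour colon arrays, at 212 (WT) and 234 (ACKR2KO). It read 2.48 and 2.5 in colon tumours, and 46.4, 43.1, 6.5 and 11.8 in small intestine, all values under the floor of 64.1 that have no order. Against that floor the colon difference was at least 3.3-fold between WT and ApcMin and at least 3.64-fold between ACKR2KO and ACKR2KO_ApcMin. All 6 other values were set to the floor and have no spread, so no p-value of Cox8b is given for this comparison. Cox7a1 and Cox8b were also the only members at least 2-fold lower in both colon pairs, which 6.13% of all genes were. In the test of whether the tumour effect differed between the tissues, Cox8b was the 1 member called lower while 0 were higher, beside 1.44% and 0.706% of all genes. That call restates the colon values, since every small-intestinal value is at the floor, and no other member was called there.

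The widely expressed partners of these subunits were not called in colon tumours. Cox7a2 read 24140, 21829, 19574 and 22425 in colon and 22124, 28024, 17715 and 27429 in small intestine. Its colon estimate was -0.13 (SE 0.22, adjusted p = 0.722). Cox8a read 12819, 11082, 9213 and 8286 in colon and 9121, 10704, 7388 and 9956 in small intestine, with a colon estimate of -0.45 (SE 0.21, adjusted p = 0.177). The third muscle-type subunit, Cox6a2, had low signals of 208, 113, 93.5 and 80.3 in colon and 126, 108, 98.4 and 127 in small intestine, and its colon estimate of -0.82 was not called (SE 0.27, adjusted p = 0.0777). Its partner Cox6a1 read 33073, 19579, 19220 and 17451 in colon, a drop from WT to the other 3 arrays that was not called as a tumour difference (-0.47, adjusted p = 0.196). No test compared a muscle-type subunit with its partner.

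**Figure D3:**
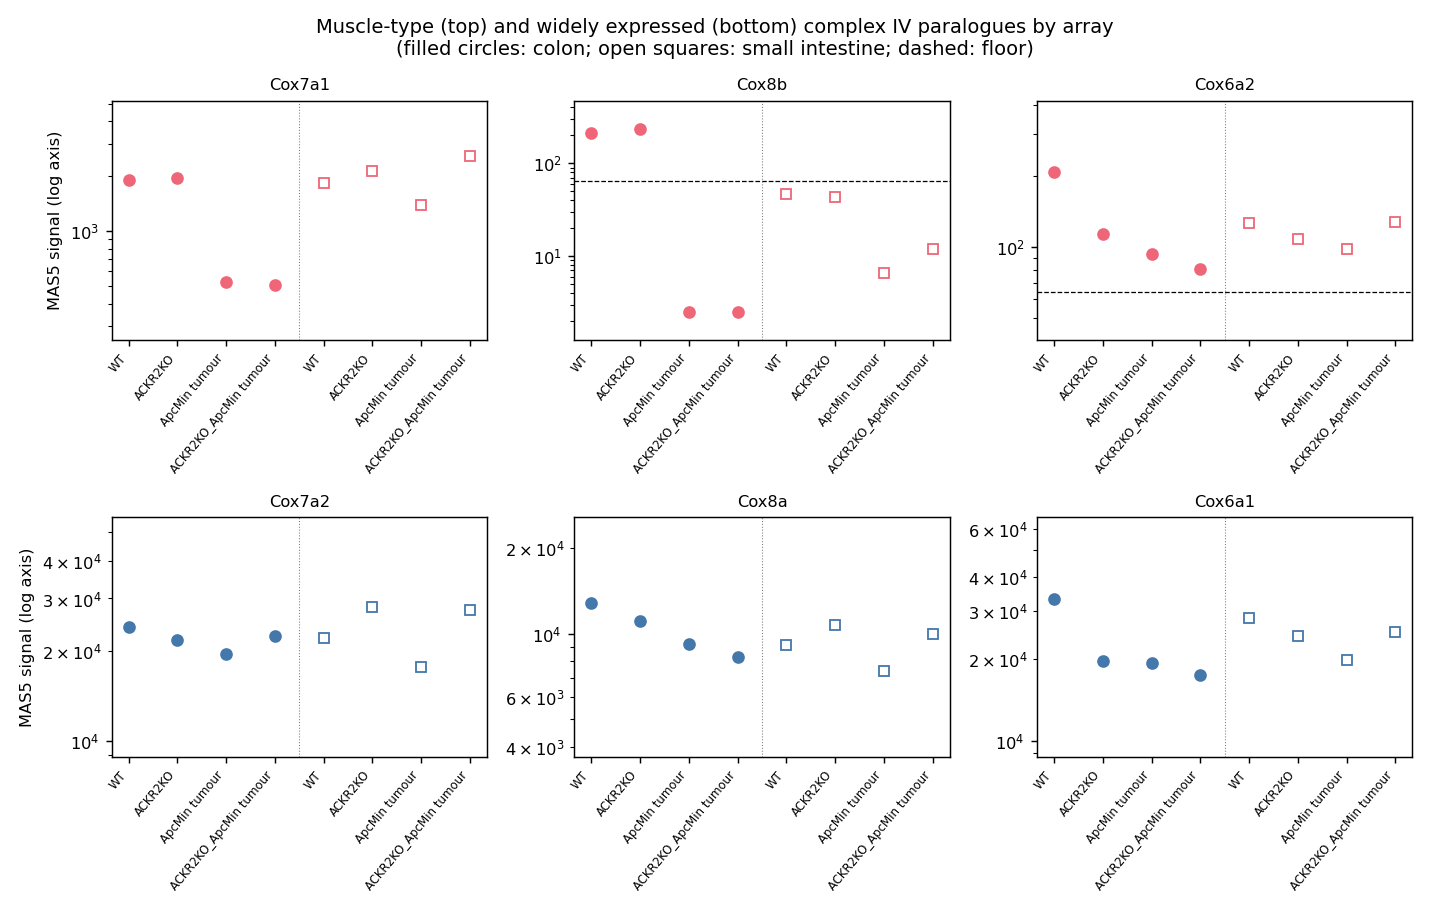
Signals on a log axis of the muscle-type complex IV subunits Cox7a1, Cox8b and Cox6a2 (top) and of their widely expressed partners Cox7a2, Cox8a and Cox6a1 (bottom), by array, with filled circles for colon, open squares for small intestine and a dashed line at the floor of 64.1 where drawn. Cox7a1 drops from 1900 and 1964 to 525 and 503 between non-tumour colon and colon tumours, and Cox8b drops below the floor.

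The promoters of the muscle-type genes Cox7a1 and Cox8b and of their partners are shown because these pairs give the clearest contrast among the members. Each is 280 bases, 250 before and 30 after the annotated start, 5' to 3' on the gene's strand, from RefSeq on mouse build GRCm38.p6. Capitals mark matches, on either strand, to the core of an ETS site, a GC box, a TATA box, an E-box or an NRF1 site. Cox7a1 is at chr7:30183921-30184200 on the + strand, Cox7a2 at chr9:79759824-79760103 on the - strand, Cox8b at chr7:140900417-140900696 on the - strand and Cox8a at chr19:7217587-7217866 on the - strand.
Cox7a1: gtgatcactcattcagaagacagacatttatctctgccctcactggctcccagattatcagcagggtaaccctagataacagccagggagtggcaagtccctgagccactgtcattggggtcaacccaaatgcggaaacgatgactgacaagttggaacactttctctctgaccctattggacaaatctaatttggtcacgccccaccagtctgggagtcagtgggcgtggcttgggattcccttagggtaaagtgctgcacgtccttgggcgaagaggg
Cox7a2: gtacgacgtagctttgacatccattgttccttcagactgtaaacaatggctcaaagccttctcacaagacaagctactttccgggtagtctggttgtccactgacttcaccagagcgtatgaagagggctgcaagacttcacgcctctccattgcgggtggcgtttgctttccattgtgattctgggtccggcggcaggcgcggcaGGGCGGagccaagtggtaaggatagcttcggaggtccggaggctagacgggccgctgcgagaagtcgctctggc
Cox8b: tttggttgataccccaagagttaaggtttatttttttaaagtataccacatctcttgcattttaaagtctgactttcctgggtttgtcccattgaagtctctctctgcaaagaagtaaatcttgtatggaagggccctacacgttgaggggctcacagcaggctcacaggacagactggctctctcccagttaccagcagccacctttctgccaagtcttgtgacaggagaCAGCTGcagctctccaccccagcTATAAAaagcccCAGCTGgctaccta
Cox8a: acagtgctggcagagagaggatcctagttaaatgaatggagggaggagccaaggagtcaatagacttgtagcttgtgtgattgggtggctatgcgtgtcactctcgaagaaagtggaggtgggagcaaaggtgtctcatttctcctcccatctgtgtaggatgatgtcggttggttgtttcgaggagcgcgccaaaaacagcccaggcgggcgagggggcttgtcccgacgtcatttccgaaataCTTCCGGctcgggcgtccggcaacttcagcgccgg

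The Cox7a1 window held none of these motifs and 6 CpG dinucleotides. That of Cox8b held a TATA box and 2 E-boxes and 1 CpG. The partners' windows had 18 (Cox7a2) and 17 (Cox8a) CpG, with a GC box in Cox7a2 and an ETS core, on the reverse strand, in Cox8a. Among the 74 members with an entry in the table, the ETS core, spelled CCGGAAG, was found in 19 (25.7%), beside 9.48% of all 27025 genes in the table. The GC box, spelled GGGCGG, was in 45.9% of members and 37.3% of genes. The TATA box, spelled TATAAA, was in 10.8% of members and 15.1% of genes. The E-box, spelled CAGCTG and the same on both strands, was in 8.11% of members and 16.8% of genes. The NRF1 site was in 16 members (21.6%), beside 4.98% of genes. The median number of CpG in a window was 18 for the members and 6 for all promoters. A match is a run of letters, and the arrays say nothing about binding at it.

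Muscle markers moved beside the muscle-type subunits. The summed signal of 10 smooth muscle genes, among them Myh11 and Des, was 137523 and 116329 in non-tumour colon and 36200 and 9834 in colon tumours, and 65271, 69977, 27172 and 12569 in small intestine. All 10 were called lower in colon tumours, with a median log2 difference of -3.58, and 7 in small-intestinal tumours, with a median of -2.21. The summed signal of 11 skeletal and cardiac muscle genes was 5691, 5349, 604 and 471 in colon and 2930, 1688, 708 and 612 in small intestine, and 2 of the 11 were at or below the floor on all arrays. In small intestine both sums were lower in tumours, and the Cox7a1 estimate there was -0.06. Mb (533 and 395), Myh1 (274 and 879), Tnnt3 (213 and 377) and Actn3 (80.6 and 132) were above the floor only in non-tumour colon. Cox8b had the same pattern. Acta1 and Ckm did not. Acta1 was above the floor on every array, at 2330 and 760 in non-tumour small intestine, 333 and 192 in colon tumours and 347 and 336 in small-intestinal tumours. Ckm read 442 and 686 in non-tumour small intestine, 110 and 65.4 in colon tumours and 157 and 58.9 in small-intestinal tumours. Only the last of these was below the floor. Myh7 and Tnnc1, at 82.5 or less on every array, did not follow the pattern of Cox8b either. Cox7a1 and Cox8b are also known from brown fat, whose defining gene Ucp1 did not pass the filter. The summed signal of 4 adipocyte genes, Adipoq included, was 5498, 2134, 990 and 414 in colon and 5943, 6272, 1155 and 3143 in small intestine. The part of muscle or fat content in the Cox7a1 and Cox8b results was not tested.

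**Figure D4:**
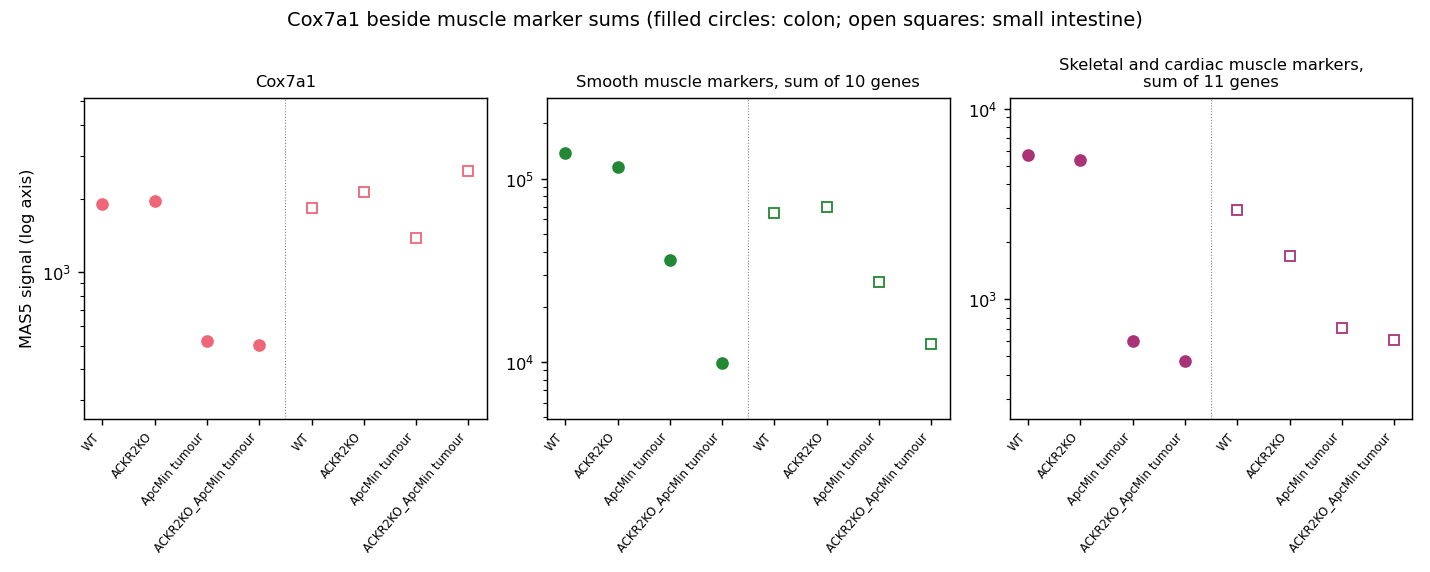
Signal of Cox7a1 and summed signals of the smooth muscle and the skeletal and cardiac muscle markers by array, on log axes, with filled circles for colon and open squares for small intestine. Both marker sums are lower in tumours of both tissues. Cox7a1 is lower in colon tumours, at 525 and 503, and overlaps in small intestine, at 1381 and 2584 in tumours.

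Other complex IV genes showed smaller differences. Cox7a2l, a factor in the assembly of respiratory supercomplexes, read 7091, 9136, 5092 and 5906 in colon and 4258, 5871, 4542 and 6594 in small intestine. It fell by 0.55 in colon tumours (SE 0.15, adjusted p = 0.0474), a call that median centring ended. Cox4i1, a subunit that binds ATP, read 20747, 18384, 15057 and 14450 in colon and 20244, 19920, 16263 and 19193 in small intestine, lower in each tumour array than in its matching non-tumour array. Its estimates were -0.40 and -0.18 and were not called (adjusted p = 0.165 and 0.632). Cox4i2, a paralogue known from lung and hypoxia, was above the floor on 4 of 8 arrays and was not called. Over the 16 tested genes the median was -0.34 in colon tumours and -0.18 in small-intestinal tumours.

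No ATP synthase gene was called in any comparison of the model described above. In colon tumours 16 of 17 estimates were below 0, with a narrow range from -0.38 (Atp5a1) to 0.01 (Atp5pb) and a median of -0.12. In small-intestinal tumours the median was -0.21, and the range ran from -0.54 (Atp5md) to 0.12 (Atp5g2). Atp5b, the catalytic beta subunit, read 18648, 16638, 16121 and 16115 in colon and 20855, 20615, 15844 and 19225 in small intestine. Its highest and lowest array were less than 2-fold apart, as the signals show.

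Between the non-tumour tissues the members differed little. In non-tumour tissue 5 members were called higher in colon than in small intestine (Cox8b, Ndufaf7, Cox7a2l, Uqcr10 and Ndufa6) and 0 lower, beside 12.9% and 8.38% of all genes. The Cox8b call is again fixed by the filter, which leaves 4. The median over the members was -0.03, beside 0.11 over all genes. It was 0.11 with quantile normalization and -0.25 with median centring, so no direction can be given for the group. Cox7a2l was higher by 0.69 (adjusted p = 0.0272) and Ndufa6 by 0.62 (adjusted p = 0.0427). In the tumours the median was 0.01. For 74 of 88 members the whole 95% interval of the non-tumour tissue difference lay within 2-fold in either direction.

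With loss of ACKR2, 0 members were called in any test of the model described above. In non-tumour tissue limma called 0 higher and 0 lower of 88 (19 had an unadjusted p under 0.05), beside 0.128% and 0.442% of all genes. In tumours the counts were 0 and 0 (16 unadjusted), beside 0% and 0.0285%. For the difference between these effects they were 0 and 0 (0 unadjusted), beside 0% and 0.00713%. A fit with 1 ACKR2 effect for all 4 pairs called Atp5md, Ndufa2, Ndufb2 and Ndufv2 higher and Sdhc lower, beside 1.83% and 3.78% of all genes.

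The members' estimates lay mostly above 0 in arrays without ACKR2. The median was 0.18 in non-tumour tissue and 0.29 in tumours, beside -0.02 and -0.03 over all genes, and 62 and 70 of 88 estimates were above 0. In non-tumour tissue 47 members were higher in both pairs, beside 30.2% of all genes, and in tumours 51, beside 22.6%. The shift was larger in small intestine, where the pair medians were 0.32 without tumour and 0.43 in tumours, than in colon, where they were 0.05 and 0.13. That difference between tissues was not tested. Quantile normalization lowered the medians to 0.09 and 0.13, and median centring raised them to 0.32 and 0.43. Under quantile normalization 40 members were higher in both non-tumour pairs, beside 42.1% of all genes, and 49 in tumours, beside 29.9%. Under median centring the counts were 52, beside 46.3%, and 61, beside 42.1%. The size of the shift thus depends on how the arrays are scaled. In non-tumour tissue, so does how far the members stand apart from all genes. The array medians and the Actb ratios given above move with the same 4 pairs, and the Gapdh ratios do not move in 1 direction. In tumours the smooth muscle sum was 36200 and 27172 with ACKR2 and 9834 and 12569 without it, colon then small intestine. All 10 smooth muscle estimates were below 0 there, with a median of -1.90, all had an unadjusted p under 0.05, and 1 was called lower. In non-tumour tissue the B cell sum was 1451 and 1385 with ACKR2 and 382 and 369 without it, with a median of -1.60 and 0 of 5 called (4 had an unadjusted p under 0.05). The part of these cell types in the members' shift was not tested.

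By complex, the tumour medians with ACKR2 loss were 0.36 for ATP synthase, 0.34 for complex III, 0.30 for complex I, 0.15 for complex II, 0.11 for complex IV and 0.10 for the Ndufaf factors. Atp5md, a small subunit of the membrane part of ATP synthase, read 7242 and 7671 in WT and 9773 and 15589 in ACKR2KO, each time colon then small intestine. In tumours it read 6724 and 5397 with ACKR2 and 10437 and 10486 without it. All 4 pairs were higher without ACKR2, yet the estimates of 0.73 (SE 0.20, adjusted p = 0.101) and 0.80 (SE 0.20, adjusted p = 0.19) were not called. Ndufb2, an accessory subunit of the membrane arm of complex I, read 3908, 6391, 4326 and 6518 in colon and 3897, 6071, 3261 and 5469 in small intestine. Its estimates were 0.67 in both states and were not called (adjusted p = 0.068 and 0.165).

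Across all 4 pairs 35 members were higher without ACKR2 and 2 were lower, Sdhc and Uqcrc1, beside 13.5% and 19.1% of all genes. Sdhc had estimates of -0.55 in non-tumour tissue and -0.57 in tumours (SE 0.18 each, adjusted p = 0.135 and 0.249). Uqcrc1, a core subunit of complex III, read 10072, 8002, 7564 and 5149 in colon and 12329, 7895, 8770 and 7482 in small intestine. The estimates were -0.49 and -0.39 (SE 0.17 each, adjusted p = 0.152 and 0.342). Uqcrc2, the other core subunit, read 10272, 12128, 9521 and 10790 in colon and 9123, 15774, 9190 and 12545 in small intestine, higher without ACKR2 in each pair.

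**Figure D5:**
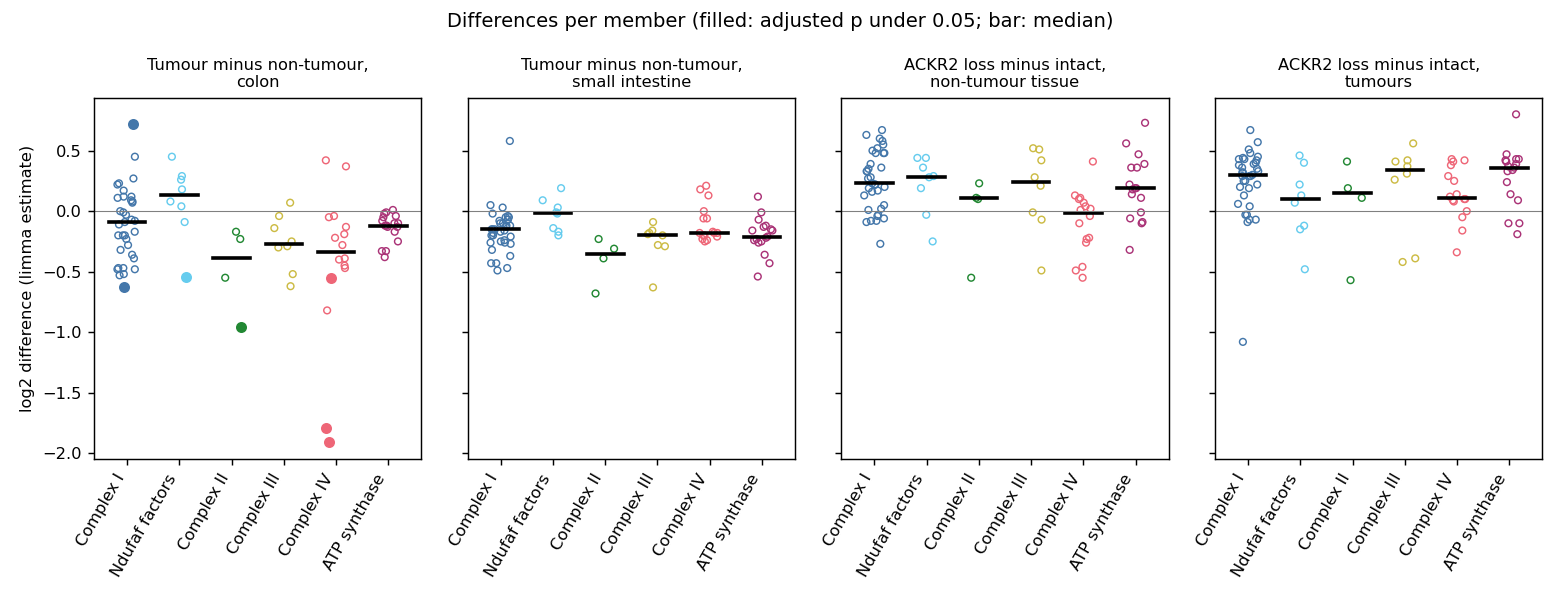
Log2 difference of each of the 88 tested members, by complex, for the tumour comparison in colon and in small intestine and for ACKR2 loss in non-tumour tissue and in tumours; filled points passed the test at an adjusted p under 0.05 and bars are medians. The 7 calls are all in the colon tumour panel, with Cox7a1 at -1.91. They include Cox8b at -1.79, whose call was fixed by the filter and the floor and whose value is only a bound. Both ACKR2 panels have medians above 0 in most groups with 0 calls.

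Genes of the surrounding pathway were taken from lists by function, and the shares of all genes called are those given above. Of 17 tested genes of the tricarboxylic acid cycle and pyruvate dehydrogenase, 0 were called higher and 3 lower in colon tumours, and 0 and 6 for the mean of both tissues. Those lower in colon were Pcx (-1.54), which makes oxaloacetate from pyruvate, Ogdh (-0.90), a subunit of the oxoglutarate dehydrogenase complex, and Cs (-0.87), citrate synthase. Of 15 genes of mitochondrial fatty acid oxidation, 4 were called lower in colon tumours: Acaa2 (-1.02), Slc25a20 (-0.87), Acadm (-0.84) and Echs1 (-0.61). The median of this list was -0.50 in colon tumours and that of the cycle -0.26, beside 0 over all genes. The 2 lists had 0 calls in small-intestinal tumours, and whether the tissues differ was not tested for the lists.

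Mitochondrial ribosome proteins, which translate the subunits encoded by mitochondrial DNA, leaned upward in colon tumours. Of 76 tested, 4 were called higher, with Mrps18b (0.88) and Mrps22 (0.79) at the top, and 2 lower, Mrpl9 (-0.65) and Mrps6 (-0.50), and the median was 0.29. Among 12 regulators of mitochondrial biogenesis, 2 were called lower and 1 higher in colon tumours, and 8 estimates were above 0. Ppargc1a, a coactivator of mitochondrial genes, read 976, 1436, 394 and 749 in colon and 778, 930, 671 and 1040 in small intestine. It fell by 1.12 in colon (SE 0.19, adjusted p = 0.0113). Esrra, a nuclear receptor that works with it, fell by 1.05 (SE 0.27, adjusted p = 0.0372), and Pprc1, a related coactivator, rose by 0.73 (SE 0.19, adjusted p = 0.0423). Nrf1, Gabpa and Tfam were not called, with estimates of 0.69, -0.03 and 0.04. Ppargc1b had the lowest estimate of the list in colon, -1.73, and was not called either. It read 3129, 1351, 1274 and 301 in colon and 1534, 768, 790 and 1101 in small intestine.

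Assembly factors outside the rule numbered 30 tested, with 0 called in colon tumours and Sdhaf1, a factor for complex II, higher for the mean of both tissues (0.70, SE 0.15, adjusted p = 0.0226). Of 10 genes for cytochrome c, cytochrome c1 and coenzyme Q steps, Coq3 was higher (0.90) and Coq9 lower (-0.96) in colon tumours. Of 8 carriers, porins and uncoupling proteins 0 were called in either tumour tissue. With ACKR2 loss in tumours, 0 genes of these lists were called.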

How the data were processed

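Per the submitters' processing notes the authors used MAS5 and Partek, whose versions are not given in the sources used here. The deposited table held linear intensity values for 45101 probe sets on 8 arrays, and on each array their mean without the outer 2% at each end was 500.0. Total RNA was labelled with a 3' IVT kit, per the labels. Of the probe sets, 64 were controls, 34945 had 1 gene, 932 several and 9160 none, by the platform annotation; all 90 members matched RefSeq gene identifiers.

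The floor was 64.1 (log2 6.00), the median over arrays of the 40th percentile. limma 3.58.1 in R 4.3.3, with trend, fitted 6 coefficients: a mean for each of the 4 tissue states, and an effect of ACKR2 loss for tumours and another for non-tumour tissue. It had 2 residual and 4.12 prior degrees of freedom, and tests were two-sided. On simulated data for the colon tumour comparison with 14027 genes, 6, 60, 100 and 100% of 50 genes each were found at log2 changes of 0.5, 1, 2 and 4, and 12 of 13827 unchanged genes were called. The number of arrays limits the precision.

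Members and lists were chosen with earlier results of these data known. Genes named in full were all of complex II, the called members with the largest differences per complex, muscle-type and hypoxia-linked paralogues with their partners, and up to 2 called genes per direction of a pathway list; others were named after their values were seen. Alternatives were other floors, filters, scalings, probe set rules and models, and leaving out arrays. Cox7b was not analysed here.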

Additional observations from a re-analysis of the deposited data

Results flagged for a closer look

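Cox8b was singled out because its tumour effect differed between the tissues by a test of that difference: the effect in colon minus the effect in small intestine was -1.79 on the floored log2 scale (limma, Benjamini-Hochberg adjusted p = 0.0333). Its small-intestinal signals were all under the floor, so no effect could be measured there, and it passed the filter only through non-tumour colon, so the test restates the colon signals. The call was lost with no floor, with the floor moved to either the 25th or the 60th percentile, with no filter and with quantile normalization, where the estimates ran from -4.13 to -0.21 over all settings.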

How the results depend on the processing

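The numbers of members called in the report were 5 (non-tumour colon against small intestine), 1 (the tumours), 7 (colon tumours) and 8 (tumours, mean of both tissues), and 0 for ACKR2 loss in either state. The 5, 7 and 8 include Cox8b, whose calls were fixed by the filter and the floor. With no filter the numbers were 1, 0, 1 and 1. With the probe sets of a gene averaged, they were 3 in non-tumour tissue, 2 in colon tumours and 3 for the mean. Without the trend they were 2, 3 and 4. Quantile normalization gave 8 in non-tumour tissue and 2 between tumours. Median centring gave 4 in colon tumours. A filter on all 8 arrays gave 2 between tumours and 2 with ACKR2 loss in non-tumour tissue. An additive model gave 5 with ACKR2 loss in either state. Without both WT arrays, or without both ACKR2KO_ApcMin arrays all 4 numbers were 0, with fewer arrays and degrees of freedom. With each array left out in turn the numbers ranged from 0 to 0 in every comparison, and the median over members ranged from -0.28 to 0 in colon tumours and from 0.13 to 0.43 for ACKR2 loss in tumours. The median over members between the tissues changed sign, running from -0.17 to 0.10 without tumour and from -0.14 to 0.12 in tumours. The cause of the other changes was not tested. No paired analysis was possible by replicate number because each group had 1 array; the fits compare ACKR2 genotypes within each tissue state. In the simulation differences of 0.5 on the log2 scale were mostly missed. It changed far fewer genes than were called in the data, so that share does not carry over directly.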

Other observations

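Hypoxia-inducible factor targets, which respond to low oxygen, differed in the small intestine, where 0 oxidative phosphorylation genes were called. Of 12 tested, 4 were called higher in small-intestinal tumours and 0 lower, beside 2.72% and 1.18% of all genes. The 4 were Slc2a1 (1.85), a glucose transporter, Ankrd37 (1.16), Bnip3 (1.15), a factor in removal of mitochondria, and Egln3 (1.12), an oxygen sensor. Slc2a1 read 555 and 562 in non-tumour small intestine and 1910 and 2106 in its tumours, and 1761 and 3093 in non-tumour colon and 4249 and 3243 in colon tumours. In colon tumours Ndrg1 was higher (0.60) and Egln1 lower (-0.62), where 11.1% of all genes were called higher and 12.6% lower. Bnip3 was the only one of these genes called with ACKR2 loss in non-tumour tissue (1.26, SE 0.17, limma adjusted p = 0.0495). Of all genes, 0.128% were called higher and 0.442% lower in that comparison.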
